A study of Mus musculus with 8 samples.

Results

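The white adipocyte genes described here are Adipoq, Cfd, Lep, Retn, Plin1, Cidec, Lipe, Pnpla2, Pck1 and Fabp4, 10 of the 25929 mouse genes for which the authors deposited RNA-sequencing values from hearts. They were found by their Ensembl identifiers, all 10 carried a value in every library, and all 10 passed the filter on low values. The list was chosen from levels measured in these same libraries, so the values of its members are a description and carry no test. The study asked whether endogenous n-3 polyunsaturated fatty acids (PUFAs) protect the heart under pressure overload. Its 8 libraries form 4 groups of 2 samples, which the labels call independent without saying whether they were animals or pools, and each library is named by its group and replicate number. Below, a heart stands for the sample of a library, whether it came from an animal or a pool. WT-Sham and WT-TAC mice were wild-type littermates labelled as strain C57BL/6. Fat1-Sham and Fat1-TAC mice, labelled as strain Fat-1, carried the fat-1 gene of Caenorhabditis elegans, an n-3 desaturase that makes n-3 from n-6 PUFAs. The promoter that drives the transgene is not given in the sources used here. TAC is transverse aortic constriction, a suture tied around the aortic arch that makes the ventricle pump against a raised pressure, and sham mice had their chest opened without it. All mice were 3 months old at surgery. The labels name ventricular tissue as the source of RNA, whereas the methods name whole hearts.

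White adipocytes store triglyceride in a large lipid droplet, build it from fatty acids and glycerol phosphate, release it again by lipolysis, and secrete hormones called adipokines. The nuclear receptor PPARγ (Pparg) and the C/EBP factors switch on this programme during fat cell development. In mice, fat lies mainly at the base of the heart, along the vessels and in the tissue around the pericardium, whereas cardiomyocytes burn fatty acids and keep small droplets of their own. Bulk RNA does not tell fewer fat cells from less RNA per fat cell.

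Expression was given in FPKM, the fragments of a gene scaled to its length and to the total fragments of its library, so that levels can be compared between genes. The FPKM values were whole numbers of fragments at 1 length per gene, which gave a depth of 14163994 to 21218331 fragments per library. A value of at most 3 fragments was treated as at the detection floor, and intervals from fragments cover counting error only. WT-TAC1 stood apart: the summed FPKM of 8 cardiomyocyte markers, of which Myh6 was the highest, was 27755 there and between 50531 and 65330 in the other libraries. Both WT-TAC libraries and, at a lower level, Fat1-Sham1 also held airway epithelium markers, and WT-TAC1 held thymocyte markers, as given with the markers of other cell types at the end. In a fit with limma over 14442 genes, the median log2 difference of all genes was 0.39 for WT-TAC vs WT-Sham and -0.40 for Fat1-TAC vs WT-TAC, and scaling by the median of ratios moved both medians to -0.01. Differences of the adipocyte genes are therefore given beside the median of all genes.

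Of the 10 genes, 7 spanned between 102-fold and 501-fold across the 8 hearts, and the other 3 spanned between 1.67-fold and 3.90-fold. The 7 were the adipokine and secreted protein genes Adipoq, Cfd, Lep and Retn, the droplet protein genes Plin1 and Cidec, and Pck1. The 3 were Lipe, Pnpla2 and Fabp4. This split was made after the values were seen. All 7 genes were lowest in Fat1-TAC1 and had their second lowest value in Fat1-Sham2. Both WT-TAC libraries held the 2 highest values for 8 genes, these 7 and Lipe.

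Adipoq on chromosome 16 (23146536 to 23158028, plus strand, GRCm38) encodes adiponectin, an abundant adipokine that sensitises tissues to insulin. Its level was 28.1 and 35.1 FPKM in WT-Sham, 100.3 and 119.7 in WT-TAC, 42.5 and 9.04 in Fat1-Sham, and 0.818 and 40.7 in Fat1-TAC. Both WT-TAC hearts lay above the other 6, and the Fat1-TAC hearts were 49.8-fold apart. The lowest value rested on 14 fragments, and the highest value was 146-fold above it, with a 95% counting interval of 87.0 to 268.

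Cfd on chromosome 10 (79890853 to 79892655, plus strand) encodes adipsin, the complement protease factor D. Cfd was at 111.0 and 154.6 FPKM in WT-Sham, 315.1 and 413 in WT-TAC, 123 and 55.8 in Fat1-Sham, and 4.06 and 169.0 in Fat1-TAC. Again the WT-TAC hearts were highest, and 68 fragments remained in Fat1-TAC1. It was the most abundant of the 7 wide-ranging genes, with a mean of 168 FPKM against 47.1 for Adipoq.

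Lep on chromosome 6 (29060220 to 29073877, plus strand) encodes leptin, the hormone that reports fat stores to the brain. Lep was at 0.269 and 0.999 FPKM in WT-Sham, 10.2 and 9.41 in WT-TAC, 0.886 and 0.0834 in Fat1-Sham, and 0.0291 and 4.13 in Fat1-TAC. Both WT-TAC hearts and Fat1-TAC2 stood above all 4 sham hearts, and Fat1-TAC1 stood below them. The values of Fat1-Sham2 and Fat1-TAC1 rested on 3 fragments and 1 fragment, at the floor, so the 351-fold span of Lep has a counting interval of 62.7 to 13918. Without Fat1-TAC1 the span was 123-fold.

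Retn on chromosome 8 (3655770 to 3660110, plus strand) encodes resistin, an adipokine that in mice comes mainly from fat cells. Retn was at 5.40 and 6.13 FPKM in WT-Sham, 20.6 and 23.9 in WT-TAC, 9.10 and 3.91 in Fat1-Sham, and 0.159 and 15.9 in Fat1-TAC. The order of the hearts was that of Adipoq with 1 exception, since Fat1-TAC2 stood above Fat1-Sham1. The lowest value rested on 3 fragments, and the span of 150-fold has a counting interval of 51.0 to 731.

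Plin1 and Cidec encode proteins of the adipocyte lipid droplet, perilipin 1, which guards the droplet from lipases, and CIDEC (FSP27), which helps droplets fuse. Plin1 on chromosome 7 (79720218 to 79732903, minus strand) was at 17.7 and 31.7 FPKM in WT-Sham, 77.0 and 104.7 in WT-TAC, 39.0 and 6.45 in Fat1-Sham, and 0.371 and 31.9 in Fat1-TAC. Cidec on chromosome 6 (113424634 to 113435760, minus strand) was at 19.5 and 40.8 FPKM in WT-Sham, 88.4 and 120.8 in WT-TAC, 39.7 and 10.2 in Fat1-Sham, and 0.794 and 33.3 in Fat1-TAC. The droplet genes placed the hearts in the same order as each other apart from the near ties among WT-Sham2, Fat1-Sham1 and Fat1-TAC2. Their spans were 282-fold and 152-fold.

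Pck1 on chromosome 2 (173153048 to 173159273, plus strand) encodes cytosolic phosphoenolpyruvate carboxykinase, which in fat cells supplies glycerol phosphate for triglyceride. Pck1 was at 26.0 and 39.4 FPKM in WT-Sham, 96.8 and 102.4 in WT-TAC, 61.2 and 7.14 in Fat1-Sham, and 0.204 and 13.9 in Fat1-TAC. In Fat1-TAC2 the level of Pck1 was below both WT-Sham hearts, whereas those of Adipoq, Cfd, Lep, Retn and, narrowly, Plin1 were above both. The level of Cidec in Fat1-TAC2 lay between the WT-Sham hearts. The span of 501-fold was the widest of the 10 genes, with 7 fragments in Fat1-TAC1 and a counting interval of 243 to 1248.

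Lipe, Pnpla2 and Fabp4 encode hormone-sensitive lipase, adipose triglyceride lipase and a fatty acid binding protein, and are known outside fat as well, the lipases in muscle and Fabp4 in capillary endothelium. Lipe on chromosome 7 (25379527 to 25398710, minus strand) was at 17.8 and 23.6 FPKM in WT-Sham, 38.7 and 52.4 in WT-TAC, 24.9 and 13.4 in Fat1-Sham, and 14.9 and 19.2 in Fat1-TAC. Lipe thus put the WT-TAC hearts on top as the 7 genes did, but kept 14.9 FPKM in Fat1-TAC1, where Adipoq was under 1. The antisense gene 4732471J01Rik overlaps Lipe, and since the strand of the counting is not stated their reads cannot be told apart, but its highest level was 1.05 FPKM.

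Pnpla2 on chromosome 7 (141455198 to 141460743, plus strand) was at 174.9 and 221 FPKM in WT-Sham, 167.7 and 280.5 in WT-TAC, 235 and 222 in Fat1-Sham, and 175.9 and 184.6 in Fat1-TAC. Fabp4 on chromosome 3 (10204088 to 10208576, minus strand) was at 204 and 221 FPKM in WT-Sham, 245 and 392 in WT-TAC, 257 and 196 in Fat1-Sham, and 250.3 and 215 in Fat1-TAC. For both genes the Fat1-TAC hearts overlapped the WT-TAC hearts. Fat1-TAC1, nearly empty of the 7 genes, held Fabp4 above 5 of the other 7 hearts.

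**Figure D1:**
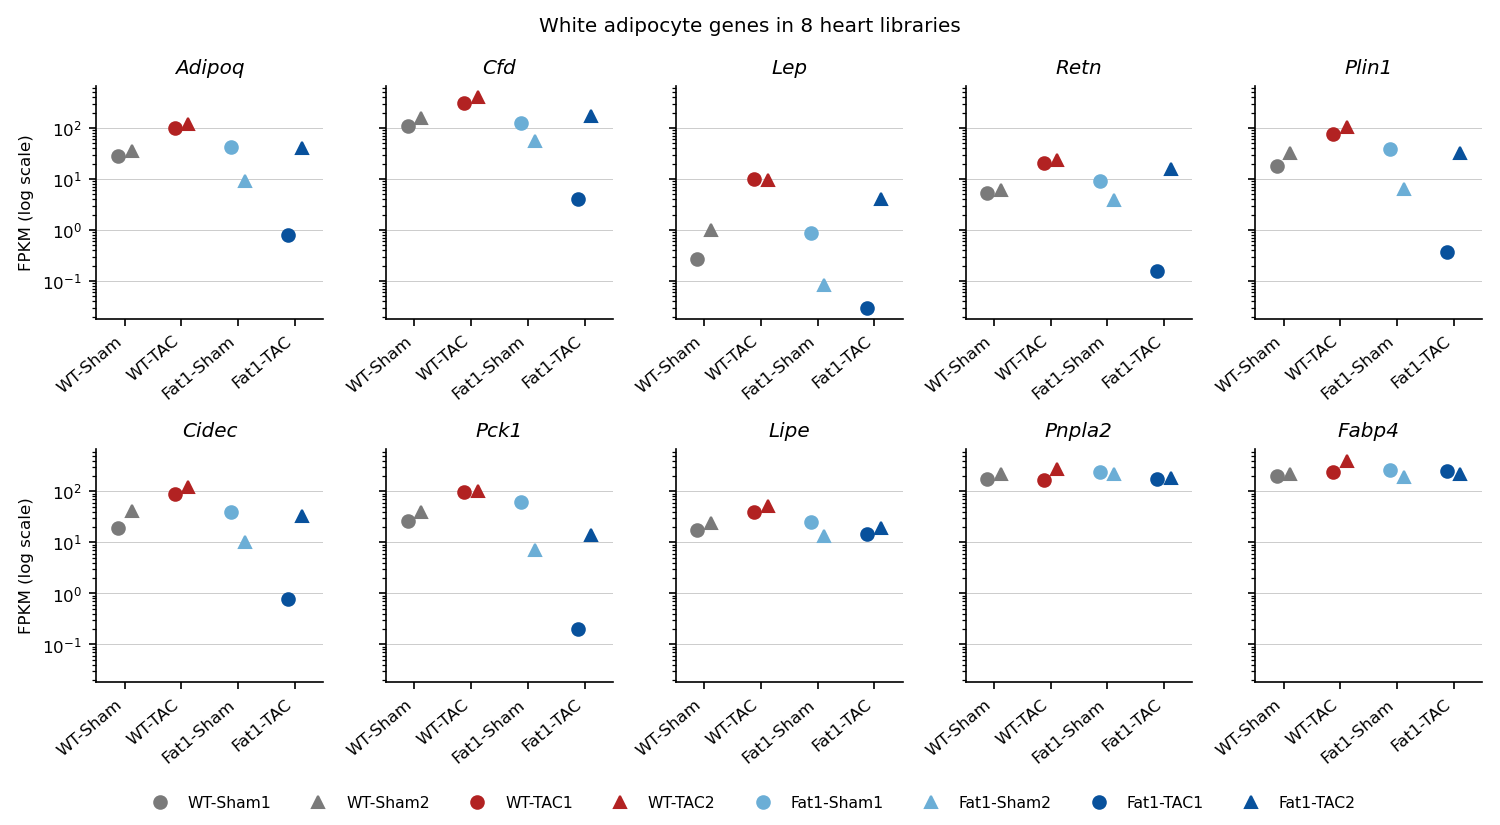
FPKM (log scale, shared by all panels) of the 10 white adipocyte genes in the 8 libraries, 2 per group, with circles for replicate 1 and triangles for replicate 2. In the first 7 panels the WT-TAC libraries are highest and Fat1-TAC1 is lowest, whereas Pnpla2 and Fabp4 stay within 1.67-fold and 2.0-fold.

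The spread between the 2 hearts of a group differed greatly among the groups. For the 7 wide-ranging genes, the WT-TAC hearts were between 1.06-fold and 1.37-fold apart, the WT-Sham hearts between 1.14-fold and 3.72-fold, the Fat1-Sham hearts between 2.21-fold and 10.6-fold, and the Fat1-TAC hearts between 41.7-fold (Cfd) and 142-fold (Lep, with 1 fragment in the lower library). For Lipe, Pnpla2 and Fabp4, no group had its hearts more than 1.86-fold apart. The group mean of Adipoq was 20.8 ± 28.2 FPKM (SD, n = 2) in Fat1-TAC, which lies near neither of its hearts, against 110.0 ± 13.7 in WT-TAC, 31.6 ± 4.96 in WT-Sham and 25.8 ± 23.7 in Fat1-Sham. Without Fat1-TAC1, the spans of Adipoq, Cfd, Retn, Plin1, Cidec and Pck1 were between 6.12-fold and 16.2-fold.

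Across the 8 libraries, which also share their differences in tissue makeup and in depth, Pearson's r between log2(FPKM + 1) of any 2 of the 7 genes was between 0.673 and 0.997 with a median of 0.963 over 21 pairs. Over the 24 pairs that included Lipe, Pnpla2 or Fabp4, it was between 0.156 and 0.868 with a median of 0.416. Against the mean pattern of the other 9 genes, Cidec (r = 0.964) and Plin1 (0.960) were most alike to the list and Pnpla2 was least alike (0.416). Leaving out Fat1-TAC1 raised the r of Fabp4 from 0.535 to 0.896 and that of Lipe from 0.892 to 0.978, and lowered that of Pnpla2 to 0.267. These correlations are descriptions of genes picked as a group.

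Upstream sequences are shown for 4 of the genes, Adipoq as the reference gene of the ratios below, Lep and Pck1 because, among the 7 wide-ranging genes, their ratios to it differed most among hearts, and Cidec as the gene most alike to the list. They are the bases before the RefSeq start of each gene on GRCm38.p6, printed 5′ to 3′ on the strand of the gene. For Lep and Pck1 they stop where GENCODE M21 places the first exon. Capitals mark matches, on either strand, to CCAAT or to TTGCNNAA, a motif of the C/EBP type, where N is any base.
Adipoq, chr16:23146286-23146535, plus strand: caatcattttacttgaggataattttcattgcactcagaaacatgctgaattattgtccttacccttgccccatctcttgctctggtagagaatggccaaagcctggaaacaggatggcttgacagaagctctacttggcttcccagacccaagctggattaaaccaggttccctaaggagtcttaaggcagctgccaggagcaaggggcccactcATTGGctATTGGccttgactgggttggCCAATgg
Lep, chr6:29059971-29060219, plus strand: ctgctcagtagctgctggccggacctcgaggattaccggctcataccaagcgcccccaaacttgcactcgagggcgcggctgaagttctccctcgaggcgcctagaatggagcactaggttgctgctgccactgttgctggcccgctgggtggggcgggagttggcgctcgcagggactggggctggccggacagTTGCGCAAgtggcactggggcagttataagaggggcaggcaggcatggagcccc
Cidec, chr6:113434765-113435014, minus strand: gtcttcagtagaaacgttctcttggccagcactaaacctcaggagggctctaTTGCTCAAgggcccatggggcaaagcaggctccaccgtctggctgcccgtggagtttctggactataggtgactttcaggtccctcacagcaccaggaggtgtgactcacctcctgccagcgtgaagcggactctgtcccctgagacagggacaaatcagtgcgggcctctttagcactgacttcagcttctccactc
Pck1, chr2:173152823-173153047, plus strand: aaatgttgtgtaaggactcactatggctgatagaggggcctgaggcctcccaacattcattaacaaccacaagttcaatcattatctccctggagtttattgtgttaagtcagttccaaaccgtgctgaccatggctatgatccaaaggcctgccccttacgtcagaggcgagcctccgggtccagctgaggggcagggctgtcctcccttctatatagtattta

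The window of Adipoq held 3 matches to CCAAT between positions -34 and -3 from the start. That of Lep held TTGCGCAA, which reads as the C/EBP type motif on both strands, at positions -55 to -48, and that of Cidec held TTGCTCAA at -198 to -191. Plin1 held TTGCCTAA and TTGCCCAA, and Pck1 held no match. The TTGCCCAA of Plin1, at -58 to -51, lies in the 127 of its 250 bases that are annotated as exon. RefSeq entries were found for 9 of the 10 genes, and Cidec and Lipe have 2 each, of which the Cidec start inside the gene is shown. The other Cidec window held no match, and a Lipe window lay wholly in an annotated exon. A gene with 2 entries counts below if either holds a match, whereas the shares of all promoters count each entry. With 250 bases before each start, the C/EBP type motif was present for 3 genes and in 9.56% of all 32851 promoters, CCAAT for 1 gene and in 33.8%, and TATAAA (12.4%), AGGTCA (14%) and a direct repeat of AGGNCA with 1 base between, the PPAR type element (0.338%), for none of the 9. Both strands were searched, and the direct repeat can contain AGGTCA. A match is a description of letters and shows no binding.

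The first comparison asks how pressure overload changed the genes in wild-type hearts. All 10 had a mean that was higher in WT-TAC hearts than in WT-Sham hearts on the log2(FPKM + 1) scale, from 0.14 ± 0.25 (SE, n = 2 against 2) for Pnpla2 to 2.76 ± 0.70 for Lep, and their median difference was 1.69, or 1.30 relative to the median of all genes. Under the median of ratios, Pnpla2 was lower and the other 9 were higher. Both WT-TAC hearts lay above both WT-Sham hearts for 9 of the 10 genes, all but Pnpla2, as for 52.5% of all genes tested. None of the 10 was called, which needed a fold change over 1.5 together with an adjusted p (Benjamini-Hochberg) under 0.1, and limma called 0.935% of all genes. At an unadjusted p under 0.05 there were 2 members against 27.5% of all genes, and voom called 0 members and 0.0485% of all genes. With only the 4 wild-type hearts in the fit, Adipoq and Lep passed the cutoffs, and Lep also passed them without Fat1-TAC1, without Fat1-TAC2 and, together with Lipe, without WT-TAC2. All genes were called at 0.872% in the wild-type fit, at 1.15% and 1.16% without Fat1-TAC1 and Fat1-TAC2, and at 50.5% without WT-TAC2. Adipoq had the same difference of 1.77 in both fits, with a standard error of 1.33 in the fit of all 8 hearts, whose shared spread includes the Fat1-TAC pair, and of 0.26 with the wild-type hearts alone. These counts concern genes picked with this contrast known.

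Fat1-TAC and Fat1-Sham hearts overlapped for 9 of the 10 genes, and did not overlap for 48.3% of all genes tested. The median difference was -0.97, and ran from -2.41 ± 1.25 for Pck1 to 0.68 ± 0.70 for Lep. This direction rested on 1 library, since leaving out Fat1-TAC1 gave a median of 0.81 and leaving out Fat1-TAC2 one of -3.06. Pnpla2 was the 1 gene without overlap, lower by 0.34 ± 0.25. Limma called 0 of the 10 genes and 0.00692% of all genes, and 0 members and 2.58% of all genes had an unadjusted p under 0.05. With voom, 0 members and 0% of all genes were called.

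Between the sham groups, the genotype difference was small beside the spread of the hearts. The median of the 10 genes was -0.31, with values from -0.65 ± 1.39 for Cfd to 0.22 ± 0.25 for Pnpla2, and it turned to 0.35 without Fat1-Sham2 and to 0.05 without WT-Sham2. For Adipoq, Fat1-Sham1 at 42.5 FPKM lay above both WT-Sham hearts and Fat1-Sham2 at 9.04 lay below them. Limma called 0 of the 10 and 0% of all genes here, with 0 members and 1.25% of all genes at an unadjusted p under 0.05. With voom, 0 members and 0% of all genes were called.

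After TAC, all 10 genes had a lower mean in Fat1-TAC than in WT-TAC, with a median difference of -3.01, or -2.60 relative to the median of all genes. The differences ran from -4.57 ± 1.25 for Pck1 and -3.76 ± 1.40 for Plin1 to -0.27 ± 0.25 for Pnpla2 and -0.42 ± 0.25 for Fabp4, and Pnpla2 and Fabp4 were higher in Fat1-TAC under the median of ratios. Both Fat1-TAC hearts lay below both WT-TAC hearts for 8 genes, all but Pnpla2 and Fabp4, as for 57.1% of all genes tested. Limma called 0 of the 10 and 1.43% of all genes, and 7 members had an unadjusted p under 0.05 as did 29.4% of all genes. With voom, 0 members and 0.623% of all genes were called. The size followed the Fat1-TAC hearts: leaving out Fat1-TAC1 gave a median of -1.14, leaving out Fat1-TAC2 one of -5.09 with 7 members and 0.941% of all genes called, and leaving out WT-TAC2 made 4 members pass but also 53.8% of all genes.

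The difference between the TAC responses of the genotypes, the interaction, had a median of -2.71 over the 10 genes, all of them negative, against -0.37 over all genes. Limma called 0 of the 10 and 0.0692% of all genes, and 1 member had an unadjusted p under 0.05 as did 7.26% of all genes. With voom, 0 members and 0% of all genes were called. WT-TAC enters this value and those of WT-TAC vs WT-Sham and Fat1-TAC vs WT-TAC, so these 3 are not independent of each other.

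**Figure D2:**
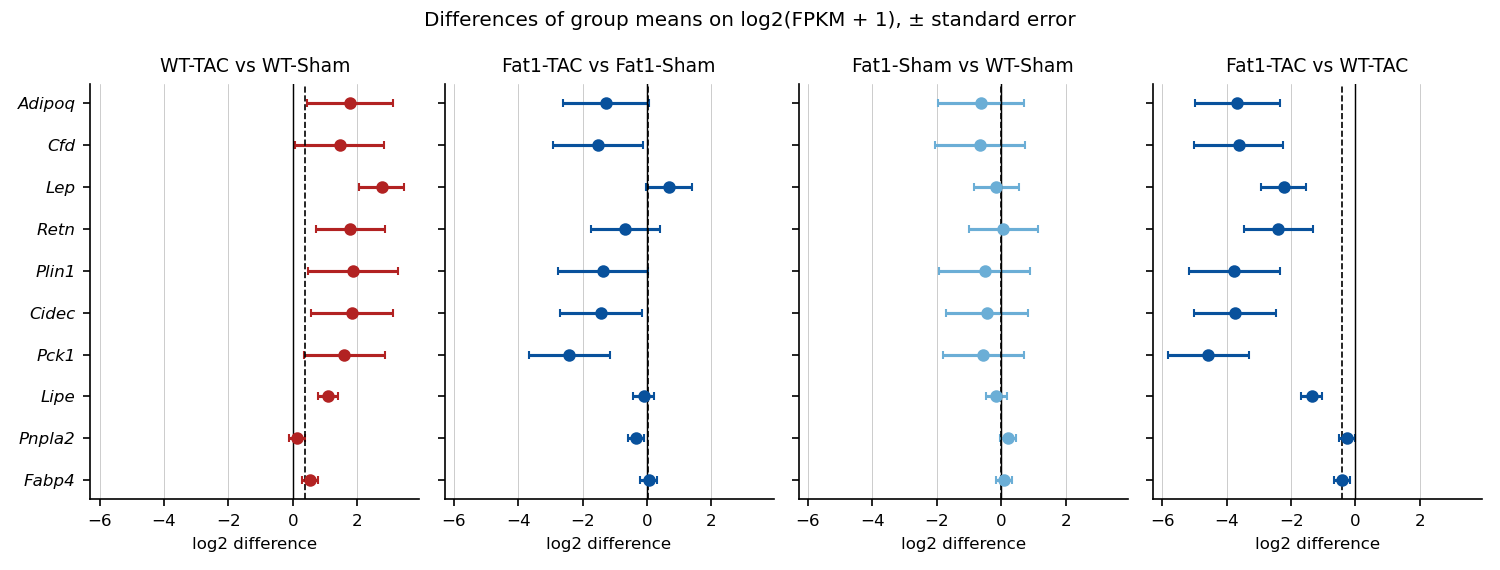
Difference of group means on log2(FPKM + 1) for each of the 10 genes in 4 comparisons, with points for the difference, bars for the standard error of the fit (2 libraries per group), a solid line at 0 and a dashed line at the median of all genes. The 7 wide-ranging genes have differences of 1.45 to 2.76 in WT-TAC vs WT-Sham and of -4.57 to -2.23 in Fat1-TAC vs WT-TAC with wide bars, and Pnpla2 and Fabp4 stay near the dashed line.

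A ratio between genes within a library is not moved by a factor that scales both genes alike. Relative to Adipoq, the levels of Cfd, Retn, Plin1 and Cidec stayed within 1.68-fold (Cidec) to 2.48-fold (Retn) across the 8 hearts, although Adipoq itself spanned 146-fold. Lep and Pck1 moved more, 11.1-fold and 5.76-fold. The ratios of Lipe, Pnpla2 and Fabp4 moved most, 47.2-fold, 128.6-fold and 125-fold, since Adipoq varied while these 3 genes held their level. These ratios were singled out after the values were seen and are given without a test.

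Lep per Adipoq was higher in TAC hearts than in sham hearts, with 1 TAC heart resolved in the fat-1 genotype. The ratio of FPKM values was 0.00955 and 0.0284 in WT-Sham, 0.0208 and 0.00922 in Fat1-Sham, 0.102 and 0.0786 in WT-TAC, and 0.0356 and 0.101 in Fat1-TAC. All 4 TAC hearts lay above all 4 sham hearts, and the geometric mean was 4.85-fold higher with TAC, or 6.18-fold without Fat1-TAC1. Fat1-TAC1 had a single Lep fragment and a counting interval of 0.000841 to 0.234, which spans the sham hearts, so the separation rests on the other 3 TAC hearts. Fat1-TAC2, whose Adipoq level of 40.7 FPKM was close to the 42.5 of Fat1-Sham1, had a Lep per Adipoq ratio of 0.101 (interval 0.0839 to 0.122) against 0.0208 (0.0138 to 0.0302) in that heart.

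Pck1 per Adipoq was lowest in the Fat1-TAC hearts. It was 0.925 and 1.12 in WT-Sham, 0.965 and 0.855 in WT-TAC, 1.44 and 0.789 in Fat1-Sham, and 0.250 and 0.342 in Fat1-TAC. The Fat1-TAC values, with counting intervals of 0.0853 to 0.661 and 0.303 to 0.385, lay below the other 6 hearts, and their geometric mean was 0.293 times that of those hearts. Fat1-TAC1 had only 7 Pck1 fragments, and its interval overlapped that of Fat1-Sham2, the next lowest heart (0.789, interval 0.646 to 0.967). With Cfd, Plin1 and Cidec together as the reference, which were picked once the values were known, Lep was at 0.00541 to 0.0171 in sham and 0.0274 to 0.0793 in TAC hearts, and Pck1 at 0.193 and 0.247 in Fat1-TAC and 0.463 to 1.06 in the others. Retn per Adipoq was higher in Fat1-Sham2 (0.432) and Fat1-TAC2 (0.390) than in the other 6 hearts (0.174 to 0.214), which followed no group.

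**Figure D3:**
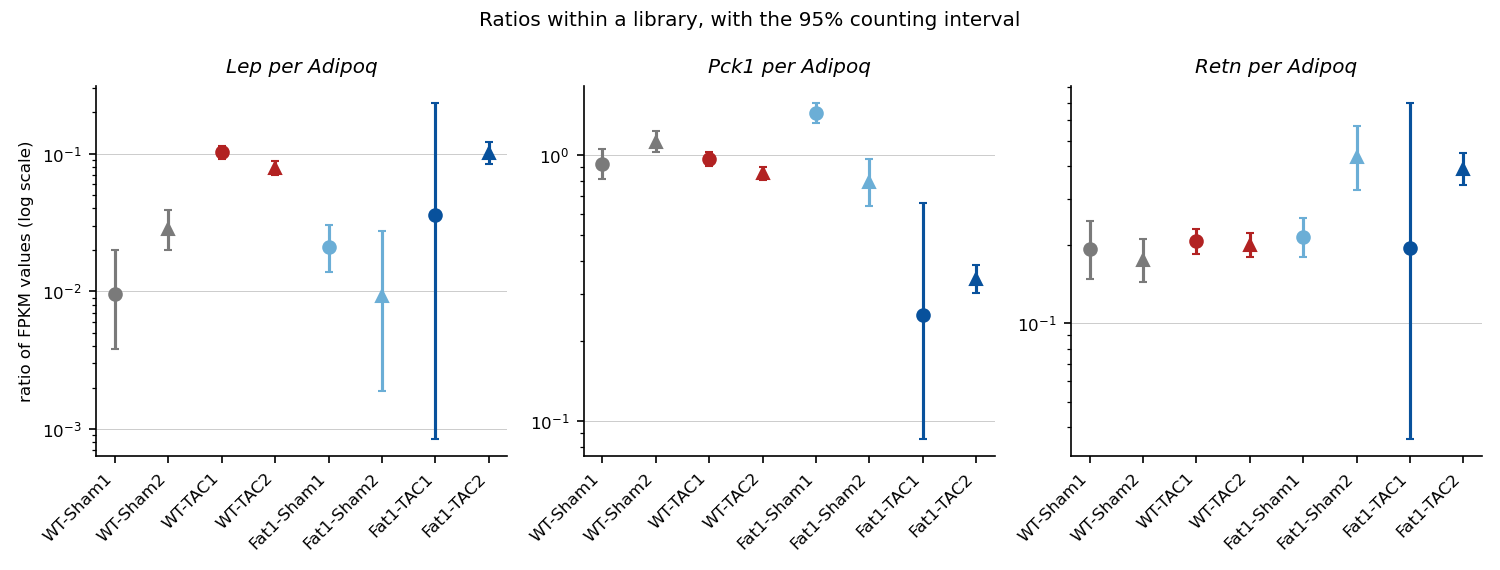
Ratio of the FPKM of Lep, Pck1 and Retn to that of Adipoq in each of the 8 libraries (log scales that differ between panels), with bars for the 95% counting interval. Lep per Adipoq is 0.0356 to 0.102 in TAC and 0.00922 to 0.0284 in sham libraries, and Pck1 per Adipoq is 0.250 and 0.342 in Fat1-TAC against 0.789 to 1.44 elsewhere.

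The rest of the fat cell programme was read from 7 lists of 65 genes, of which 64 passed the filter. Limma called 0.935% of all genes in WT-TAC vs WT-Sham, 1.43% in Fat1-TAC vs WT-TAC and 0.0692% in the interaction. In Fat1-TAC vs Fat1-Sham it called 0.00692%, and between the shams 0%. Of the 64 list genes it called none in any comparison, except Hcar2 in Fat1-TAC vs WT-TAC, which is 1.56% of them. At an unadjusted p under 0.05, 17 were higher and 4 lower in WT-TAC vs WT-Sham, 3 and 0 in Fat1-TAC vs Fat1-Sham, 0 and 2 between the shams, 5 and 33 in Fat1-TAC vs WT-TAC, and 1 and 10 in the interaction. The shares of all genes at that p in these comparisons, both directions together, were 27.5%, 2.58%, 1.25%, 29.4% and 7.26%. Voom called 0.0485% of all genes in WT-TAC vs WT-Sham, 0.623% in Fat1-TAC vs WT-TAC and 0% in the other comparisons. It called 0 of the 64 list genes in all 5. Without WT-TAC2, which leaves WT-TAC1 as the only WT-TAC library, limma called 22 of them in WT-TAC vs WT-Sham, 33 in Fat1-TAC vs WT-TAC and 16 in the interaction, or 34.9%, 52.4% and 25.4% of the 63 tested, against 50.5%, 53.8% and 45.8% of all genes in that fit. Under the median of ratios, the counts at an unadjusted p under 0.05 were 5 and 8 for WT-TAC vs WT-Sham. Those for Fat1-TAC vs WT-TAC were 6 and 18, so the balance of directions depended on the scaling. Of all 14442 genes, 2806 and 2978 were at that p in these comparisons under that scaling, both directions together. Hcar2, the niacin receptor that restrains lipolysis, was at 0.476 and 0.440 FPKM in WT-Sham, 1.52 and 1.67 in WT-TAC, 0.466 and 0.0530 in Fat1-Sham, and 0.0277 and 0.171 in Fat1-TAC. Only the WT-TAC libraries reached the 1 FPKM that the filter asks of at least 2 libraries. Hcar2 thus entered the test through the group where its level was highest, and its call is not read as a result. It fell in Fat1-TAC vs WT-TAC by 1.24 ± 0.24 on the log2(FPKM + 1) scale (limma, adjusted p = 0.0995), but this call was marginal: over the alternatives the adjusted p ran from 0.0543 with no filter, where it was called, to 0.469 without Fat1-TAC1, and it was 0.237 under the median of ratios. Hcar2 and its neighbour Hcar1 encode related receptors, and whether reads were shared between them was not tested.

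Likeness to the adipocyte genes was measured as Pearson's r over the 8 libraries with the mean pattern of the 10 members, on log2(FPKM + 1), as a description. Among 13 genes of fatty acid and triglyceride synthesis the median r was 0.934, and 9 were over 0.8. Fasn, the fatty acid synthase, was at 89.9 and 90.0 FPKM in WT-Sham, 193 and 532 in WT-TAC, 169 and 26.9 in Fat1-Sham, and 8.06 and 100.8 in Fat1-TAC (r = 0.978). Scd1, the desaturase that makes monounsaturated fatty acids, spanned 168-fold from 3.93 FPKM in Fat1-TAC1 to 662 in WT-TAC2 (r = 0.946). Gpd1, which makes glycerol phosphate, spanned 9.16-fold (r = 0.934). Dgat2, which completes triglyceride, stayed within 1.82-fold (r = 0.552). The median difference of the 13 genes was 1.41 for WT-TAC vs WT-Sham and -1.92 for Fat1-TAC vs WT-TAC, 0 were called, and their smallest adjusted p was 0.175 and 0.125.

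Transcription factors of fat cells were less uniform, with a median r of 0.751 over 9 genes. Cebpa, which drives late fat cell development, was at 7.34 and 12.2 FPKM in WT-Sham, 36.9 and 39.0 in WT-TAC, 15.2 and 5.30 in Fat1-Sham, and 4.16 and 15.1 in Fat1-TAC (r = 0.95). Srebf1, a regulator of lipid synthesis, was highest in WT-TAC1 at 90.6 FPKM and lowest in WT-Sham1 at 17.4 (r = 0.729). Klf15 and Cebpb, which are active in many tissues, stayed within 1.84-fold and 2.17-fold (r = 0.241 and 0.140). No gene of the 9 was called in any comparison, with a smallest adjusted p of 0.128 in Fat1-TAC vs WT-TAC.

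Uptake genes did not share the pattern. Lpl, which frees fatty acids from lipoproteins, was at 1906 and 2063 FPKM in WT-Sham, 884 and 1619 in WT-TAC, 2091 and 2207 in Fat1-Sham, and 1713 and 1836 in Fat1-TAC (r = -0.377). Cd36, the fatty acid transporter, Acsl1, which activates fatty acids, and Slc2a4, the insulin-regulated glucose transporter, had r values of -0.623, -0.309 and -0.159. All 4 were lowest in WT-TAC1, the library with the least cardiomyocyte marker RNA, and the median r of the 7 genes in the list was -0.18. None of the 7 was called.

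Other droplet and lipolysis genes divided. Of 11 genes 5 had r over 0.8, and the list median was 0.741. Among the most abundant, Plin2, the perilipin found in most cells, had r = 0.741 within a span of 1.67-fold, Mgll, the monoglyceride lipase, had r = -0.199, and Plin3 and Plin5, the latter a perilipin of oxidative muscle, had r = -0.527 and -0.570. Adrb3, the adrenergic receptor that starts lipolysis in fat cells, was at 4.51 and 5.27 FPKM in WT-Sham, 18.9 and 23.4 in WT-TAC, 8.54 and 1.19 in Fat1-Sham, and 0.113 and 5.03 in Fat1-TAC (r = 0.976), with 3 fragments in Fat1-TAC1. Limma called 0 of the 11, with a smallest adjusted p of 0.118 in Fat1-TAC vs WT-TAC.

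Of 7 other secreted products, 3 had r over 0.8 and the median was 0.256. Nampt stayed within 1.5-fold (r = 0.202), whereas Rarres2, which encodes chemerin, had r = 0.820 and Nrg4, a neuregulin released by fat, had r = 0.90. Of 9 other genes that are high in fat cells, 7 had r over 0.8 with a median of 0.947. Car3, an abundant carbonic anhydrase of fat, was at 115.4 and 171 FPKM in WT-Sham, 479 and 612 in WT-TAC, 170.8 and 34.6 in Fat1-Sham, and 2.90 and 199.1 in Fat1-TAC. Mrap, a partner of melanocortin receptors, spanned 3.69-fold (r = 0.948). Sncg and Nnat, which nerve tissue also expresses, had r = 0.628 and 0.611, and Nnat was highest in WT-TAC1 at 35.9 FPKM and second in Fat1-TAC2 at 16.8.

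Some brown adipocyte genes were low relative to Adipoq in the hearts Fat1-Sham2 and Fat1-TAC2, and others were not. Ucp1, the uncoupling protein that makes heat in brown fat, was at 12.0 and 44.0 FPKM in WT-Sham, 39.4 and 101.8 in WT-TAC, 36.4 and 0.0313 in Fat1-Sham, and 0 and 0.943 in Fat1-TAC. Per Adipoq it was 0.392 to 1.25 in the 4 wild-type hearts and Fat1-Sham1, 0.0232 in Fat1-TAC2, and at the floor in Fat1-Sham2 (1 fragment) and Fat1-TAC1 (0 fragments, where 3 are the floor). Fat1-TAC2 and Fat1-Sham1 had like levels of Adipoq, 40.7 and 42.5 FPKM, but 28 and 1060 fragments of Ucp1. Otop1, a proton channel of brown fat, and Elovl3, an elongase of brown fat, both picked after their values were seen, had 9 and 0 fragments in Fat1-TAC2 against 88 and 48 in Fat1-Sham1. Elovl3 was also low per Adipoq in WT-Sham1 and WT-TAC1, with 3 and 12 fragments. Dio2, a deiodinase that activates thyroid hormone, had 56 fragments in Fat1-TAC2 against 77 in Fat1-Sham1, or 0.0130 and 0.0175 per Adipoq. Cidea per Adipoq was 0.446 in Fat1-TAC2, near the 0.415 of WT-TAC1, against 1.07 in Fat1-Sham1 and 2.22 in Fat1-Sham2. Cox8b, Kcnk3 and Ppargc1a, which heart muscle expresses too, had r of -0.581, -0.262 and -0.201 with the white adipocyte pattern. Of the 9 genes in this list, 8 were tested and none was called, with a smallest adjusted p of 0.136 in Fat1-TAC vs WT-TAC.

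**Figure D4:**
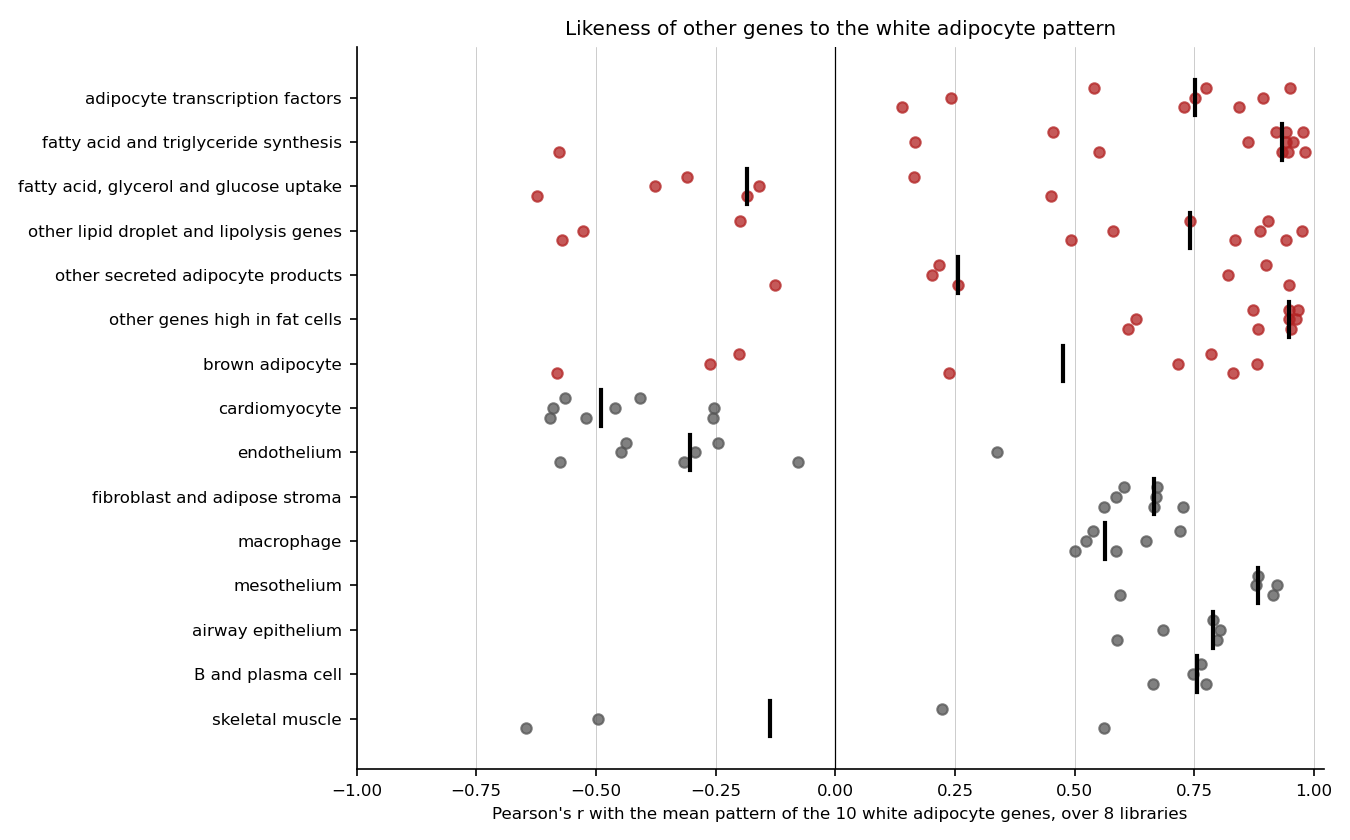
Pearson's r over 8 libraries between each listed gene and the mean pattern of the 10 white adipocyte genes, with a point per gene (red for lists of the fat cell programme, grey for markers of other cell types, spread vertically for legibility) and a bar at the median of each list. Synthesis genes (median 0.934) and other fat cell genes (0.947) lie at the right, uptake genes (-0.18) and cardiomyocyte markers (-0.49) left of 0.

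Outside the lists, the search for like patterns ran over the 1678 other named genes that passed the filter and spanned at least 4-fold in FPKM + 1. Of these, 58 had r over 0.9 and 26 over 0.95. The 15 most alike, with r from 0.962 to 0.988, were Ces1f, Ankef1, Cdo1, Acaca, Aoc3, Fasn, Car5b, Adrb3, Aacs, Pnpla3, Apoc1, Acvr1c, Lgals12, Gm5182 and Slc25a1, and all 15 were highest in WT-TAC2 and lowest in Fat1-TAC1. Acaca, Fasn, Adrb3, Acvr1c and Lgals12 were already in the lists. Ces1f, a carboxylesterase, led with r = 0.988 and was at 3.04 and 3.87 FPKM in WT-Sham, 13.6 and 19.3 in WT-TAC, 6.36 and 1.86 in Fat1-Sham, and 0.216 and 4.38 in Fat1-TAC. Cdo1, a cysteine dioxygenase, spanned 102-fold, from 1.01 FPKM in Fat1-TAC1 to 103.7 in WT-TAC2. Aacs and Slc25a1, which supply acetyl units for lipid synthesis in the cytosol, spanned 18.9-fold and 12.5-fold. Aoc3, an amine oxidase of fat cells and vessels, kept 5.67 FPKM in Fat1-TAC1 and spanned 4.57-fold. Ankef1 was listed at 0 in Fat1-TAC1, and Apoc1 had 1 fragment there.

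Markers of other cell types moved with the adipocyte genes to different degrees. The summed FPKM of 5 mesothelium markers, of which Upk3b was the highest on average, was 38.1 and 50.02 in WT-Sham, 72.2 and 86.8 in WT-TAC, 38.2 and 31.6 in Fat1-Sham, and 21.4 and 41.1 in Fat1-TAC, with 4 of the 5 lowest in Fat1-TAC1 and a median r of 0.883 with the adipocyte pattern. Mesothelium is the cell sheet that covers the heart and lines the chest. The 7 markers of fibroblasts and adipose stroma, led by Dcn, summed to between 396 and 725 FPKM (median r 0.666), and the 6 macrophage markers, led by Lyz2, to between 238 and 526 (0.562). Endothelium, with 8 markers led by Ly6c1, summed to between 390.2 and 614 FPKM (-0.304), and 6 skeletal muscle markers led by Ckm, which the heart also expresses, to between 501 and 953. That sum is carried by Ckm and Acta1. Mylpf, Tnnt3, Myh1 and Myh4, of fast skeletal muscle, were at 65.4, 48.4, 8.39 and 4.47 FPKM in WT-TAC1 and at most at 2.96, 4.73, 0.0716 and 0.0277 in the other libraries.

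Tissues next to the heart were present in some libraries. The 5 airway epithelium markers, led by Bpifa1, summed to 1422 and 3748 FPKM in WT-TAC and 46.8 in Fat1-Sham1, and to between 0.147 and 0.758 in the other 5 libraries. The 5 thymocyte markers, led by Cd8b1, summed to 890.7 FPKM in WT-TAC1 and to at most 0.537 elsewhere. The 4 B and plasma cell markers, led by Jchain, summed to 76.6 and 37.9 FPKM in WT-TAC and 31.5 in Fat1-TAC2, and to between 1.15 and 2.51 in the other 5. The median r with the adipocyte pattern was 0.788 for the airway list and 0.755 for the B and plasma cell list, and no marker of these lists was at 0 in every library. High airway values and high adipocyte values met in WT-TAC1 and WT-TAC2. The next highest library was Fat1-Sham1 for the airway sum, at 46.8, and for Adipoq (42.5 FPKM), Plin1 and Pck1. For Cfd, Lep and Retn it was Fat1-TAC2, at 169, 4.13 and 15.9 FPKM, and for Cidec it was WT-Sham2, at 40.8 FPKM. The WT-Sham hearts held Adipoq at 28.1 and 35.1 FPKM with airway sums of 0.758 and 0.197, and Fat1-TAC2 held it at 40.7 with 0.147. The part of these tissues, skeletal muscle included, in the adipocyte values was not tested.

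**Figure D5:**
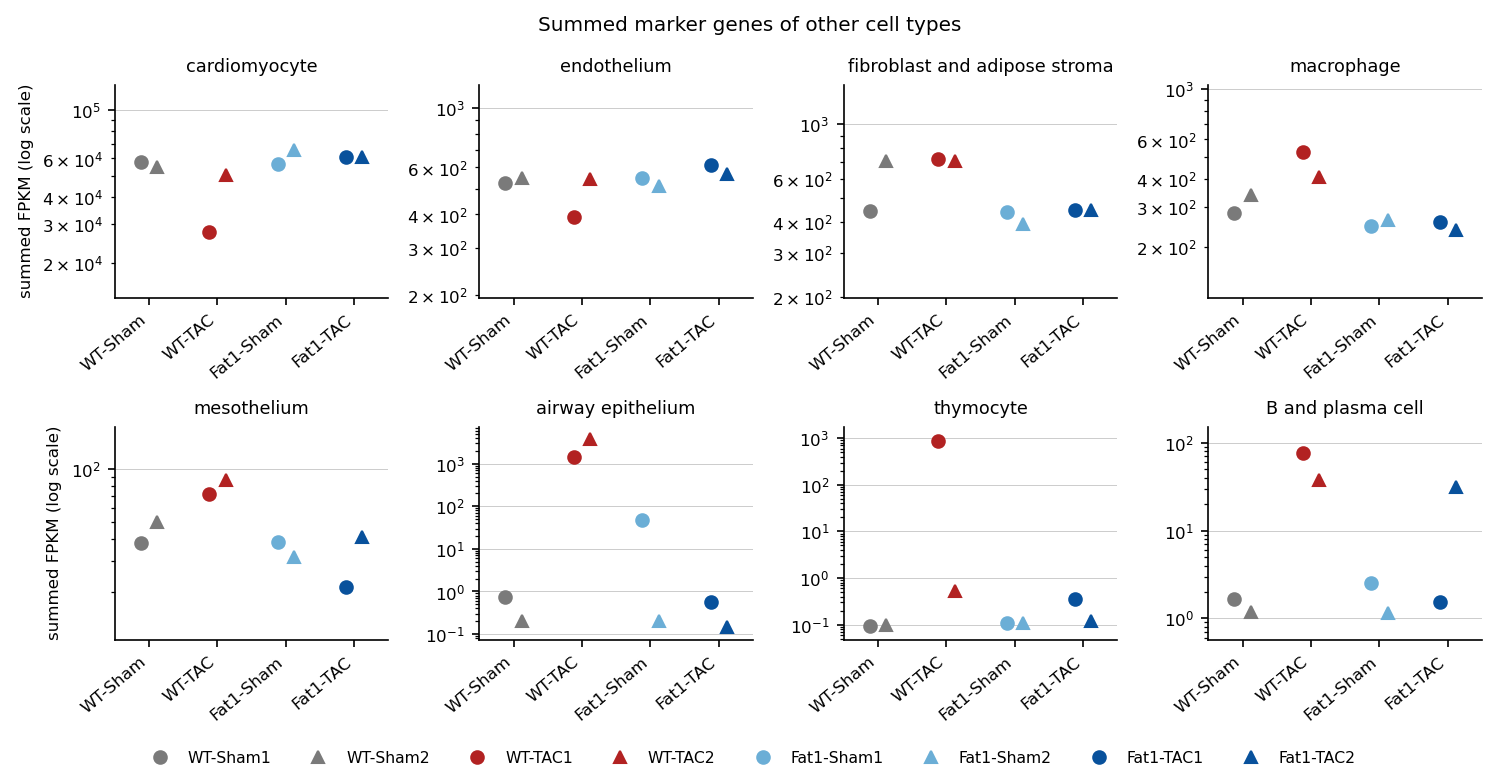
Summed FPKM (log scales that differ between panels) of markers of 8 other cell types in the 8 libraries, with circles for replicate 1 and triangles for replicate 2. Airway epithelium markers are high in both WT-TAC libraries and in Fat1-Sham1, thymocyte markers in WT-TAC1, and mesothelium markers range from 21.4 in Fat1-TAC1 to 86.8 in WT-TAC2.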

How the data were processed

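The 8 RNA-seq libraries, 2 in each of 4 groups taken from the labels, were prepared with the NEBNext Ultra kit from mouse hearts or ventricles. The deposited FPKM values were made by the authors from quality-filtered reads, and the submitters' processing notes name HISAT2 and mm10/GRCm38. The counting program, the annotation and the strand setting are not given in the sources used here. Annotation printed here is GENCODE on GRCm38, and promoter sequences are from RefSeq.

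All FPKM values of the 25929 listed genes were whole fragments at 1 length per gene within 0.01 fragments (0.02 for genes left over), which gave the depth and the counting intervals. Genes with at least 1 FPKM in at least 2 libraries (14442) were fitted on log2(FPKM + 1) in R 4.3.3 with limma 3.58.1, with 4 group means, all 8 libraries and a mean-variance trend. Called genes had a Benjamini-Hochberg adjusted p under 0.1 over all genes tested and a fold change over 1.5. Fold changes on this scale understate the change of low genes. Nothing says whether samples came from separate animals or pools, so p-values measure only the spread between these samples, which may be technical. The fit was tested on simulated data. Alternatives were other scalings, filters and pseudocounts, voom on the recovered fragments, the 2 groups alone, the replicate number as a block, and each library left out.

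The members and gene lists were chosen with earlier results of these data known. Named were all members, per list up to 3 called genes in a comparison and the 4 genes with the highest mean FPKM, the 15 other genes most like the members among those spanning at least 4-fold, and the highest marker of each other cell type. A gene that this rule would name is not reported here. Pparg, Cidea, Otop1, Elovl3, Dio2 and the skeletal muscle genes other than Ckm were named after their values were seen, as were the genes that only an alternative called.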

Additional observations from a re-analysis of the deposited data

Results flagged for a closer look

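A pattern of opposite separation was met by 3 of the 64 tested genes of the fat cell lists. Both WT-TAC libraries lay above both WT-Sham libraries, and both Fat1-TAC libraries lay below both Fat1-Sham libraries. This held for 7.93% of all genes tested, a higher share. Margins in the fat-1 hearts were narrow for Pparg, at 9.67 FPKM in Fat1-TAC2 against 9.81 in Fat1-Sham2, and for Cidea, at 19.4 in Fat1-TAC1 against 20.1 in Fat1-Sham2. The interaction of genotype and surgery on log2(FPKM + 1) was -1.74 ± 0.73 (SE) for Cidea, a droplet protein of brown fat, -1.09 ± 0.36 for Pparg, the master regulator of fat cell development, and -0.50 ± 0.21 for Plin2. None of these passed the limma test of the interaction, with an adjusted p of 0.495 for each.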

How the results depend on the processing

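The median difference of the 10 members kept its direction under every scaling, filter and pseudocount tried and under voom. Leaving out each library gave 1.32 to 1.88 for WT-TAC vs WT-Sham, -3.06 (without Fat1-TAC2) to 0.81 (without Fat1-TAC1) for Fat1-TAC vs Fat1-Sham, -0.90 to 0.35 for Fat1-Sham vs WT-Sham and -5.09 to -1.14 for Fat1-TAC vs WT-TAC. The median span of the members was 148-fold and ran from 9.64-fold without Fat1-TAC1 to 148-fold. Among the list genes, fitting the 2 compared groups alone called 2 in WT-TAC vs WT-Sham (Acly and Car3), 2 in Fat1-TAC vs Fat1-Sham and 0 in Fat1-TAC vs WT-TAC. These were 3.1%, 3.5% and 0% of the list genes tested, against 0.872%, 0.642% and 0.297% of all genes in those fits. The 1 call in Fat1-TAC vs WT-TAC, Hcar2, also became 0 under the median of ratios, quantile normalization, a pseudocount of 0.1, the replicate block, voom and a minimum mean of 5 FPKM; beyond the filter that left Hcar2 out, the cause was not tested. Leaving out a library gave 0 to 22 calls in WT-TAC vs WT-Sham, 0 to 33 in Fat1-TAC vs WT-TAC and 0 to 16 in the interaction, the highest each time without WT-TAC2, where 45.8% to 53.8% of all genes were called and the lone WT-TAC library is assumed to vary like the other groups. Without WT-TAC2 the remaining WT-TAC library is WT-TAC1, which held thymocyte markers. The remaining calls of list genes with a library left out came from fits that leave 1 library in a group. They are not read as results here. Libraries with the same number shared only that number: deviations from group means correlated at -0.135 to 0.0236 over 14442 genes. In this balanced design the replicate block cannot move a difference of means, so the median of Fat1-TAC vs WT-TAC stays at -3.01 by construction, and it bears on the calls alone. Values under 3 fragments, such as Lep in Fat1-TAC1, are limited by depth.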
